A study of Mus musculus with 6 samples.

Results

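The genes described here act where microtubules begin: the centrosome, the γ-tubulin complexes that nucleate microtubules, and the proteins that hold or cap microtubule minus ends. The set was a list of 35 named genes, chosen by function and not by measured values, and all 35 were found by symbol among the 35275 identifiers of the deposited table. The table holds FPKM (fragments per kilobase of gene and per M, or mega, mapped fragments) for 6 libraries of cells sorted from the back-skin epidermis of CD1 IGS mouse embryos. In the K10-spastin group (3 libraries, genotype K10rtTA;TREspastin) a doxycycline-dependent activator under the keratin 10 promoter turned on spastin, an enzyme that severs microtubules. The dams are also described with TRE-H2B-GFP, a doxycycline-dependent nuclear green fluorescent protein by which the cells were sorted. The K10-spastin libraries therefore sample cells in which this system was on. The control group (3 libraries) is labelled only as control, and the sources used here do not name the transgenes of its embryos. Whether the system was on in the control cells is therefore not known. In both groups doxycycline chow began at E14.5 (E, embryonic day) and the skin was collected at E16.5. Each library came from an independent RNA sample, the sources used here give no number of embryos for it, and p-values therefore measure the spread between these samples.

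Microtubules grow from a γ-tubulin ring complex, in which γ-tubulin sits on a scaffold of GCP proteins (the Tubgcp genes) with the small subunits MZT1 and MZT2. In dividing cells adapters such as NEDD1, pericentrin and CDK5RAP2 bring this complex to the centrosome, and ninein and other appendage proteins of the mother centriole hold minus ends there. In epidermis, cells that leave the basal layer lose much of this centrosomal organisation: ninein, LIS1 (the product of Pafah1b1) and NDEL1 gather with desmosomes at the cell cortex, and microtubules no longer radiate from the centrosome. CAMSAP proteins bind free minus ends away from any centrosome.

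Of the 35 genes, 31 averaged 1 FPKM or more over the 6 libraries and were tested. In K10-spastin cells 1 of them, the minus-end anchor Nin, fell to 22.8% of its control mean, and 2 rose: Ndel1, a dynein regulator, to 188% of its control mean and Camsap1, a binder of free minus ends, to 180%. The other 28 were not called. Here and below a gene rose or fell when limma's adjusted p, over all 11071 genes tested, was under 0.05. The 3 calls are 9.68% of the members tested, against 11.0% of all genes tested (5.14% higher and 5.90% lower), so the number of calls does not set the members apart. At an unadjusted limma p under 0.05, 3 members were higher and 8 lower, against 1421 higher and 2065 lower of all 11071 genes tested. The control and K10-spastin libraries did not overlap in 13 of the 31 (41.9%), 11 of them lower and 2 higher in K10-spastin, against 40.4% of all genes tested, of which 24.8% were lower and 15.6% higher. The median log2 change of the members was -0.24 and that of all genes tested was -0.09, and 25 of the 31 changes were negative, against 6470 of 11071 over all genes tested. Log2 changes are K10-spastin minus control, given with their SE, and were taken on log2(FPKM + 1), so those of low genes are understated. In bulk libraries fewer cells of a type and less RNA per cell cannot be told apart.

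**Figure D1:**
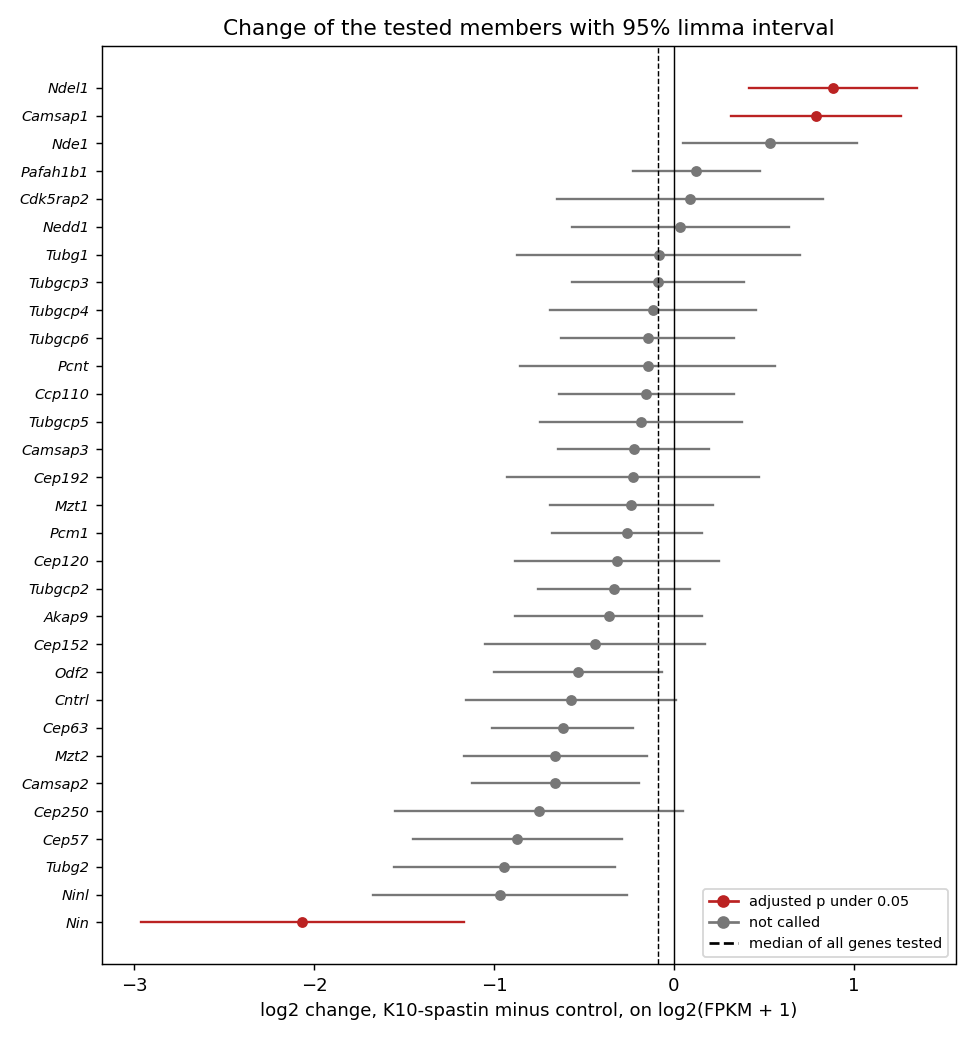
The log2 change of each of the 31 tested members (x axis, K10-spastin minus control on log2(FPKM + 1)) with its 95% limma interval, sorted by size, with the median of all genes tested as a dashed line at -0.09. Nin lies at -2.07, apart from the next lowest member Ninl at -0.97, and Ndel1 and Camsap1 at 0.88 and 0.79 are the called genes on the other side.

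Spast, the induced gene, measured 21.2, 24.0 and 21.4 FPKM across controls 1 to 3, against 1431, 639 and 213 FPKM across K10-spastin 1 to 3. The step of the low values gave depths of 16.0 to 22.5 M fragments per library. Median-of-ratios size factors, the scale of each library against the others, were 0.8258 in K10-spastin 1 and 1.012 to 1.075 in the other libraries. The FPKM printed are not divided by them. K10-spastin 1, the library with the most Spast, held the lowest value of the 6 libraries in 22 of the 31 tested members (71.0%), as it did in 50.4% of all genes tested. Without it, 2 of 33 members tested were higher and 3 lower, with Cep57 and Camsap2 called beside Nin, and 12.5% of 11111 genes were called (687 higher and 700 lower). The log2 changes were then -1.66 for Nin, 0.70 for Ndel1 and 0.60 for Camsap1, with limma adjusted p of 0.0194, 0.0380 and 0.0450.

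The sequences just before the transcription starts of the 3 called members are shown to set the member that fell beside those that rose. They come from RefSeq (build GRCm38.p6), which held promoter entries for 27 of the 35 members. The sources used here do not name the build behind the deposited values, and these values do not say which start was used. Each run is the 250 bases before the start, 5′ to 3′ on the gene's strand. RefSeq lists 3 starts for Nin, of which the most upstream is shown, and 1 each for Camsap1 and Ndel1. Capitals mark matches, on either strand, to any of 6 motifs: CCAAT, the AP-1 site TGANTCA, the CRE TGACGTCA, the E-box CACGTG, the GC box GGGCGG and the TATA motif TATAAA.
Nin (chr12:70112036-70112285, minus strand): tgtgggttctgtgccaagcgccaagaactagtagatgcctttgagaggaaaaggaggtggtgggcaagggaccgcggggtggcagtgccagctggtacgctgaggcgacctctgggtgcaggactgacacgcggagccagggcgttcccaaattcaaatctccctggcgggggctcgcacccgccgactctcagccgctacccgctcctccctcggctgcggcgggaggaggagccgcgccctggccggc
Camsap1 (chr2:25983283-25983532, minus strand): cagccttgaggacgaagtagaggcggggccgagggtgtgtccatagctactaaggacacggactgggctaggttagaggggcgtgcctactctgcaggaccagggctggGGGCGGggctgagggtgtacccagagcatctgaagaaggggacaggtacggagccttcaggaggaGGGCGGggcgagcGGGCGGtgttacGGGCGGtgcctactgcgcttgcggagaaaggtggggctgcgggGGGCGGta
Ndel1 (chr11:68853136-68853385, minus strand): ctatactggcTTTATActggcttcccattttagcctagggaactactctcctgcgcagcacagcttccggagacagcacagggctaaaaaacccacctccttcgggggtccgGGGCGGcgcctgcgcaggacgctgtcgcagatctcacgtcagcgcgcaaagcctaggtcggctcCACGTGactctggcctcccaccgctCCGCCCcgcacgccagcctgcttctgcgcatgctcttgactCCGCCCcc
The Camsap1 window held 5 GC boxes, at 141, 76, 63, 51 and 8 bases before the start. The Ndel1 window held 3, at 138, 49 and 8 bases, with an E-box at 74 bases and a TATA motif, on the opposite strand, at 240 bases. None of the 6 motifs was found in the Nin window shown, which says only that these letters are not in it. The windows of the other Nin starts did hold matches: a CCAAT at -160 and a GC box at -27 relative to one start, and a CCAAT at -46 relative to the other. Over the 32851 promoter windows of the same length in the table, 32.7% held a GC box, 6.02% the E-box, 12.4% the TATA motif, 33.8% CCAAT, 6.75% the AP-1 site and 1.55% the CRE. Of the 27 members with a promoter entry, 17 held a GC box in at least 1 entry, so the box is not particular to the genes that rose. Counts of members are per gene, over 37 entries, while the shares over the table are per window. They therefore cannot be compared directly. The E-box was held by 2 members, Ndel1 and Cep63, and the change of Cep63 was negative and not called. The 3 windows were 67.2%, 66.4% and 63.6% G or C, against a median of 52.4% over the table.

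Anchoring and appendage genes came first by size of change. Nin (ENSMUSG00000021068) encodes ninein, which anchors minus ends at the appendages of the mother centriole and, in differentiating keratinocytes, at the cortex. It measured 23.5, 18.1 and 24.5 FPKM across controls 1 to 3, against 2.10, 4.57 and 8.41 FPKM across K10-spastin 1 to 3. The highest K10-spastin library lay below the lowest control. Its mean was 22.0 ± 3.42 FPKM without and 5.03 ± 3.18 FPKM with K10-spastin (SD, n = 3). The log2 change was -2.07 ± 0.38 (limma adjusted p = 0.0206, 95% interval -2.96 to -1.17). In 13 of 17 other settings Nin was called. Without any 1 of the controls, or without K10-spastin 2, it was not called (adjusted p up to 0.0899, log2 change -2.46 to -1.46 over the 17 settings).

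Ninl encodes the ninein-like protein, which binds γ-tubulin complexes at centrosomes. It measured 6.02, 6.25 and 5.05 FPKM across controls, against 1.32, 2.43 and 4.16 FPKM with K10-spastin, with a log2 change of -0.97 ± 0.30 (limma adjusted p = 0.0777). The groups did not overlap, and Ninl was called without K10-spastin 3. Cep250 encodes C-NAP1, which links the pair of centrioles, and measured 5.51, 4.70 and 6.10 FPKM across controls, against 1.23, 4.49 and 3.52 FPKM with K10-spastin (log2 change -0.75 ± 0.34, limma adjusted p = 0.181). Odf2, whose product cenexin builds the appendages, was the most abundant gene of this group. It measured 43.1, 49.0 and 50.4 FPKM across controls, against 24.1, 38.3 and 37.0 FPKM with K10-spastin (log2 change -0.53 ± 0.20, limma adjusted p = 0.117). Cntrl encodes centriolin, another protein of the mother centriole. It measured 10.9, 10.6 and 11.5 FPKM across controls, against 4.79, 10.03 and 7.23 FPKM with K10-spastin (log2 change -0.57 ± 0.25, limma adjusted p = 0.165). In each of these 5 tested genes every K10-spastin library lay below every control, with K10-spastin 1 the lowest; of all genes tested 24.8% were lower without overlap and 50.4% were lowest in K10-spastin 1. Cep170, whose product also sits on the appendages, was listed at 0.0992 to 0.308 FPKM and was not tested. The sum of the 6 genes was 96.5% to 106% of the control mean in the controls and 36.8%, 65.2% and 65.8% of it in K10-spastin 1 to 3, a sum to which Odf2 and Nin contributed most in the controls.

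**Figure D2:**
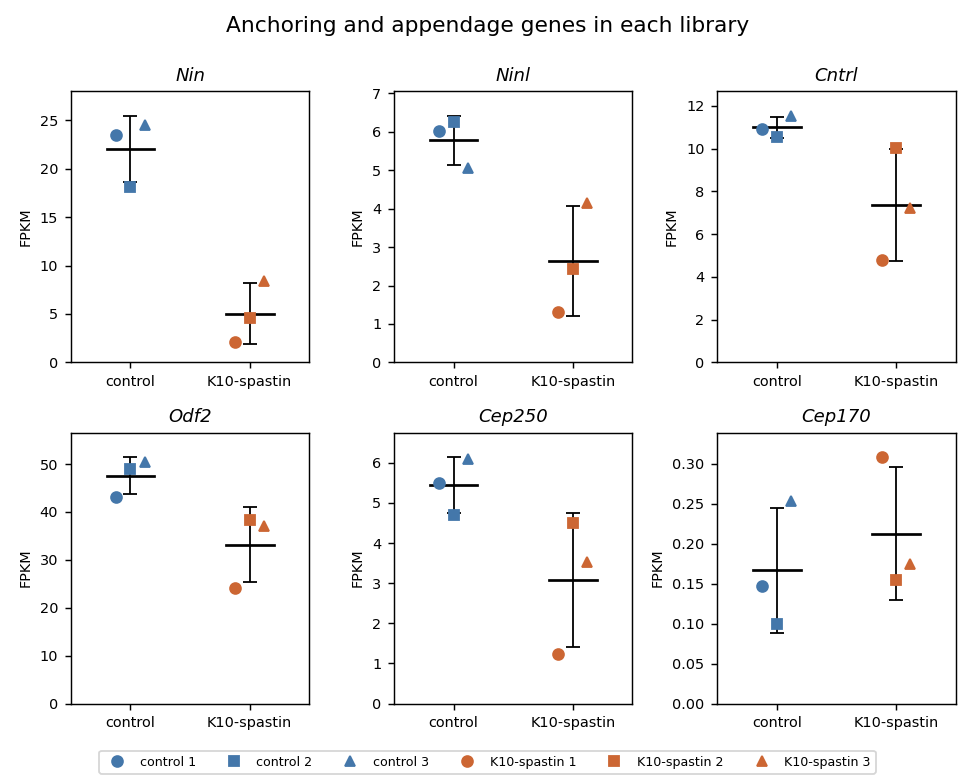
FPKM of the 6 anchoring and appendage genes in each library (points, marked by library), with the group mean and SD (horizontal line and bars, n = 3); each y axis starts at 0 and has its own scale. In Nin the K10-spastin points reach 8.41 FPKM at most and the controls 18.1 FPKM at least; in Cep170 no point lies above 0.308 FPKM.

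The CAMSAP genes did not move together. Camsap1 (ENSMUSG00000026933) measured 30.6, 31.3 and 29.9 FPKM across controls 1 to 3, against 71.0, 53.2 and 41.1 FPKM across K10-spastin 1 to 3, so all K10-spastin libraries were above all controls. Its mean was 30.6 ± 0.710 FPKM without and 55.1 ± 15.1 FPKM with K10-spastin (SD, n = 3). The log2 change was 0.79 ± 0.20 (limma adjusted p = 0.0485). That value lies close to the threshold: 12 of 17 other settings ended the call, each control left out and K10-spastin 2 left out among them, with adjusted p up to 0.159 and log2 changes of 0.53 to 0.98. A processed pseudogene, Gm19026, matches Camsap1 transcripts at 94.7% identity over 4289 bases, and another, Gm19040, at 91.0% over 2233 bases. Neither was found in the deposited table, and fragments may be split between Camsap1 and these copies.

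Camsap2, whose product decorates and stabilises stretches of minus-end lattice, lay the other way. It measured 12.8, 16.8 and 15.5 FPKM across controls, against 11.3, 8.68 and 7.61 FPKM with K10-spastin, with no overlap (log2 change -0.66 ± 0.20, limma adjusted p = 0.0718). Camsap3, the family member first described at epithelial adherens junctions, measured 53.5, 40.7 and 36.1 FPKM across controls, against 40.4, 32.6 and 37.1 FPKM with K10-spastin, and the groups overlapped (log2 change -0.22 ± 0.18, limma adjusted p = 0.436, 95% interval -0.64 to 0.20). As a share of the summed CAMSAP FPKM, Camsap1 made up 34.5% ± 2.64 in control and 54.0% ± 5.37 in K10-spastin (SD, n = 3), Camsap3 48.4% ± 5.93 and 36.9% ± 5.57, and Camsap2 17.1% ± 3.34 and 9.10% ± 0.204. Camsap3 was the most abundant CAMSAP in each control library and Camsap1 in each K10-spastin library. The log2 ratio of Camsap1 to Camsap3 was -0.47 ± 0.28 in control and 0.54 ± 0.35 in K10-spastin (SD, n = 3). This is a difference of 1.01 with an exact two-sided permutation p of 0.1, the smallest that 3 against 3 allows, and 0.2 after adjustment over the 4 ratios compared. The ratio of Camsap2 to Camsap3 differed by -0.44 (exact permutation p = 0.3, adjusted 0.4).

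Genes of the dynein regulators that carry or hold minus ends were among the most abundant members. Ndel1 (ENSMUSG00000018736), whose product binds LIS1 and dynein and whose promoter window holds the E-box printed before, had the highest mean FPKM of the 35 genes in both groups. It measured 54.3, 71.0 and 71.6 FPKM across controls 1 to 3, against 157, 109 and 103 FPKM across K10-spastin 1 to 3. The groups did not overlap. Its mean was 65.6 ± 9.83 FPKM without and 123 ± 29.5 FPKM with K10-spastin (SD, n = 3). The log2 change was 0.88 ± 0.20 (limma adjusted p = 0.0352, 95% interval 0.42 to 1.35). The call ended in 7 of 17 other settings: no filter, median-of-ratios scaling, the replicate block, each control left out and K10-spastin 2 left out (adjusted p up to 0.104).

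Nde1, the paralog of Ndel1 that is best known from dividing progenitors, measured 39.8, 46.0 and 30.9 FPKM across controls, against 44.6, 65.6 and 60.3 FPKM with K10-spastin, with K10-spastin 1 inside the control range (log2 change 0.54 ± 0.21, limma adjusted p = 0.126). Pafah1b1, which encodes LIS1, measured 32.6, 33.1 and 29.9 FPKM across controls, against 40.7, 30.4 and 34.2 FPKM with K10-spastin. Its log2 change was 0.13 ± 0.15 (limma adjusted p = 0.611), with a 95% interval of -0.23 to 0.48. The log2 ratio of Nde1 to Ndel1 differed by -0.35 between the groups (exact two-sided permutation p = 0.5, adjusted 0.5), and the difference turned to 0.16 when control 1 and K10-spastin 1 were left out together.

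**Figure D3:**
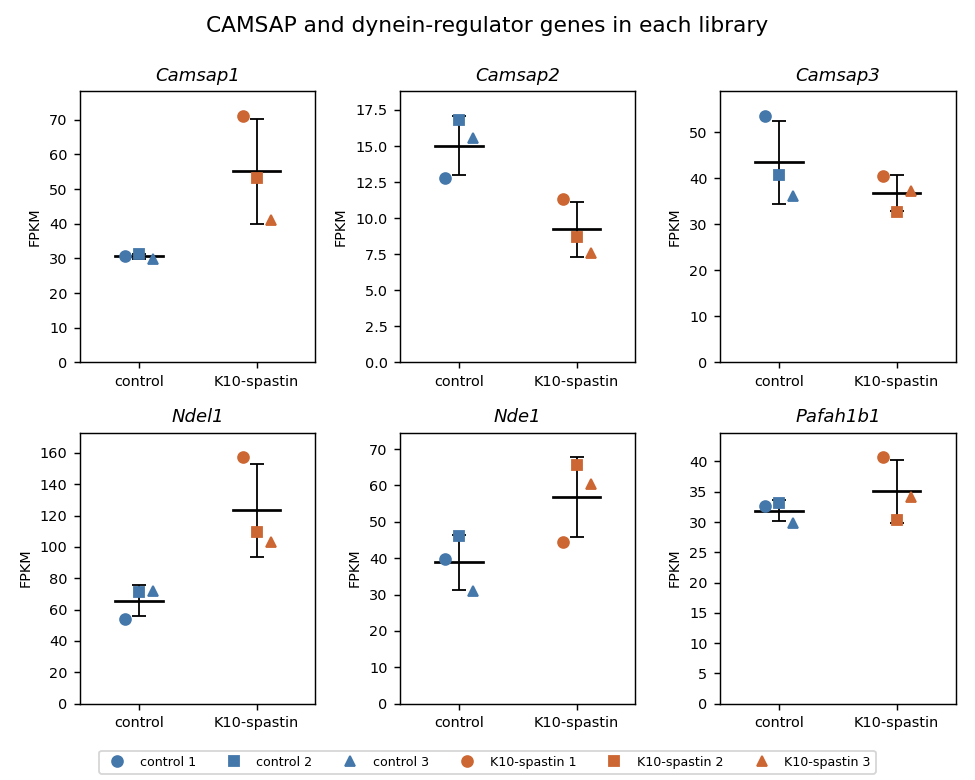
FPKM of the 3 CAMSAP genes and the 3 dynein-regulator genes in each library (points, marked by library), with the group mean and SD (horizontal line and bars, n = 3); each y axis starts at 0 and has its own scale. Camsap1 and Ndel1 are higher in every K10-spastin library than in every control, Camsap2 is lower, and Camsap3, Nde1 and Pafah1b1 overlap.

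The γ-tubulin ring complex had 9 members, all tested. By limma 0 were called, and 2, Tubg2 and Mzt2, had an unadjusted p under 0.05. Of all 11071 genes tested, 1421 were higher and 2065 lower at that unadjusted limma p. Tubg1, the main γ-tubulin gene, measured 28.8, 33.0 and 34.2 FPKM across controls 1 to 3, against 16.7, 45.1 and 35.7 FPKM across K10-spastin 1 to 3. K10-spastin 1 lay below the controls and the other K10-spastin libraries above them (log2 change -0.08 ± 0.33, limma adjusted p = 0.889, 95% interval -0.87 to 0.70). Tubg2, the less abundant γ-tubulin gene, measured 4.11, 3.53 and 2.76 FPKM across controls, against 0.657, 1.66 and 1.77 FPKM with K10-spastin, without overlap (log2 change -0.94 ± 0.26, limma adjusted p = 0.0603). With its 1 annotated transcript these values correspond to 162, 99 and 80 fragments in the controls and to 20, 57 and 54 fragments in K10-spastin. Tubg2 was called lower under median-of-ratios scaling and with array weights.

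Tubg2 made up 9.87% ± 2.53 of the summed γ-tubulin FPKM in control and 4.03% ± 0.626 in K10-spastin (SD, n = 3). The log2 ratio of Tubg1 to Tubg2 was higher in K10-spastin by 0.86, with every K10-spastin library above every control (exact two-sided permutation p = 0.1, the smallest possible, adjusted 0.2). Transcripts of the 2 genes share 93.1% identity over 1368 bases, so fragments may be split between them.

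Mzt2, a small subunit, measured 28.5, 28.1 and 30.2 FPKM across controls, against 12.7, 19.9 and 22.7 FPKM with K10-spastin, without overlap (log2 change -0.66 ± 0.22, limma adjusted p = 0.0885). Its relative Mzt1 measured 7.73, 10.7 and 9.51 FPKM across controls, against 7.92, 6.50 and 8.79 FPKM with K10-spastin (log2 change -0.24 ± 0.19, limma adjusted p = 0.439). GCP2 and GCP3 form the base of the small complex. Tubgcp2 measured 10.2, 10.8 and 10.8 FPKM across controls, against 6.63, 9.56 and 8.72 FPKM with K10-spastin, without overlap (log2 change -0.33 ± 0.18, limma adjusted p = 0.250). With Tubg2 and Mzt2, 3 of the 9 ring complex genes were lower without overlap, against 24.8% of all genes tested. For Tubgcp3, Tubgcp4, Tubgcp5 and Tubgcp6 the groups overlapped, with control means of 11.9, 7.83, 5.17 and 12.8 FPKM and K10-spastin means of 11.3, 7.39, 4.41 and 11.6 FPKM. Their log2 changes were -0.09, -0.11, -0.18 and -0.14 (limma adjusted p 0.648 to 0.801). In Tubgcp4, 25.4% of exon bases overlap Trp53bp1 on the opposite strand in GENCODE, and the sources used here do not say whether strand was read. Opposite-strand overlaps also covered 11.1% of Cep250 exon bases (6430550D23Rik, 0.0497 to 1.35 FPKM) and 9.32% of Camsap3 exon bases (Xab2, 20.6 to 31.0 FPKM). Some exon overlap with another gene was found in 17 of the 35 members. The summed FPKM of the 9 genes was 122, 122 and 121 in the controls and 71.0, 124 and 114 in K10-spastin, so the K10-spastin library that stood apart was again the first. That library was also the lowest of the 6 in 50.4% of all genes tested.

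Of the 8 genes that recruit the complex or build the material around centrioles, limma called 0, and 2, Cep57 and Cep63, had an unadjusted p under 0.05. The same unadjusted threshold was passed by 1421 higher and 2065 lower genes of the 11071 tested. Cep57 and Cep63 are described first. Both encode proteins of the ring around the centriole that starts duplication. Cep57 measured 10.9, 10.4 and 11.3 FPKM across controls 1 to 3, against 3.53, 6.53 and 7.09 FPKM across K10-spastin 1 to 3 (log2 change -0.87 ± 0.25, limma adjusted p = 0.0626). It was called lower under median-of-ratios scaling and quantile normalization, with array weights and without K10-spastin 1. Cep63 measured 9.42, 11.1 and 11.5 FPKM across controls, against 5.99, 7.15 and 6.71 FPKM with K10-spastin (log2 change -0.62 ± 0.17, limma adjusted p = 0.0564). It was called lower without a variance trend, with array weights and without control 1 and K10-spastin 1 together. In both genes, and in no other of the 8, every K10-spastin library lay below every control, as in 24.8% of all genes tested. Cep152, the scaffold that recruits the duplication kinase PLK4, measured 1.43, 2.36 and 2.01 FPKM across controls, against 0.570, 1.59 and 1.43 FPKM with K10-spastin (log2 change -0.44 ± 0.26, limma adjusted p = 0.293). Its values rest on 186, 218 and 192 fragments in the controls and on 57, 180 and 143 fragments in K10-spastin.

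The genes for the adapters themselves overlapped between the groups. Akap9, which nucleates microtubules at the Golgi as well as the centrosome, was the most abundant, at 35.6, 56.8 and 57.3 FPKM across controls, against 36.8, 44.9 and 32.6 FPKM with K10-spastin (log2 change -0.36 ± 0.22, limma adjusted p = 0.304). Cdk5rap2, an activator of the ring complex, measured 5.93, 5.23 and 6.21 FPKM across controls, against 3.58, 9.97 and 6.46 FPKM with K10-spastin (log2 change 0.09 ± 0.31, limma adjusted p = 0.874). A Cdk5rap2 transcript matches Ywhaq, listed at 79.1 to 121 FPKM, with 100% identity over 435 bases, so fragments of Ywhaq may be counted in it. Pcnt, the pericentrin gene, measured 3.63, 2.96 and 3.47 FPKM across controls, against 1.72, 5.02 and 2.70 FPKM with K10-spastin (log2 change -0.15 ± 0.30, limma adjusted p = 0.781). In Cdk5rap2 and Pcnt, K10-spastin 1 was below every control and K10-spastin 2 above every control. Nedd1, the targeting subunit, measured 2.84, 2.30 and 2.55 FPKM across controls, against 1.65, 3.89 and 2.74 FPKM with K10-spastin (log2 change 0.04 ± 0.26, limma adjusted p = 0.940). Cep192, a mitotic scaffold, measured 1.59, 2.10 and 2.18 FPKM across controls, against 0.648, 2.43 and 1.82 FPKM with K10-spastin (log2 change -0.23 ± 0.30, limma adjusted p = 0.647). Nedd1 and Cep192 repeat the order seen in Pcnt, with K10-spastin 1 below and K10-spastin 2 above every control. Within K10-spastin, library 1 was the lowest and library 2 the highest in 39.8% of all genes tested.

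Genes of centriole length and assembly, with the satellite scaffold Pcm1, were the least abundant. Limma called 0 of the 3 tested, with 0 at an unadjusted p under 0.05, against 1421 higher and 2065 lower of all 11071 genes tested. Pcm1 measured 6.95, 8.80 and 8.73 FPKM across controls, against 5.86, 7.26 and 6.79 FPKM with K10-spastin (log2 change -0.26 ± 0.18, limma adjusted p = 0.358). Cep120, needed for centriole elongation, measured 2.68, 2.85 and 3.46 FPKM across controls, against 1.38, 2.92 and 2.53 FPKM with K10-spastin (log2 change -0.31 ± 0.24, limma adjusted p = 0.412). Ccp110, whose product caps centrioles, measured 1.21, 1.07 and 1.15 FPKM across controls, against 0.622, 1.31 and 0.911 FPKM with K10-spastin (log2 change -0.15 ± 0.21, limma adjusted p = 0.659). The groups overlapped in all 3, and K10-spastin 1 was the lowest library in each. Cep97, the partner of CP110, missed the filter at 1.35, 1.36 and 1.21 FPKM across controls, against 0.452, 0.710 and 0.903 FPKM with K10-spastin, and these values did not overlap. Cenpj, a centriolar tubulin binder, was listed at 0.410 to 1.28 FPKM and Cep135, a part of the centriole cartwheel, at 0.273 to 0.521 FPKM, with overlap and no test.

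**Figure D4:**
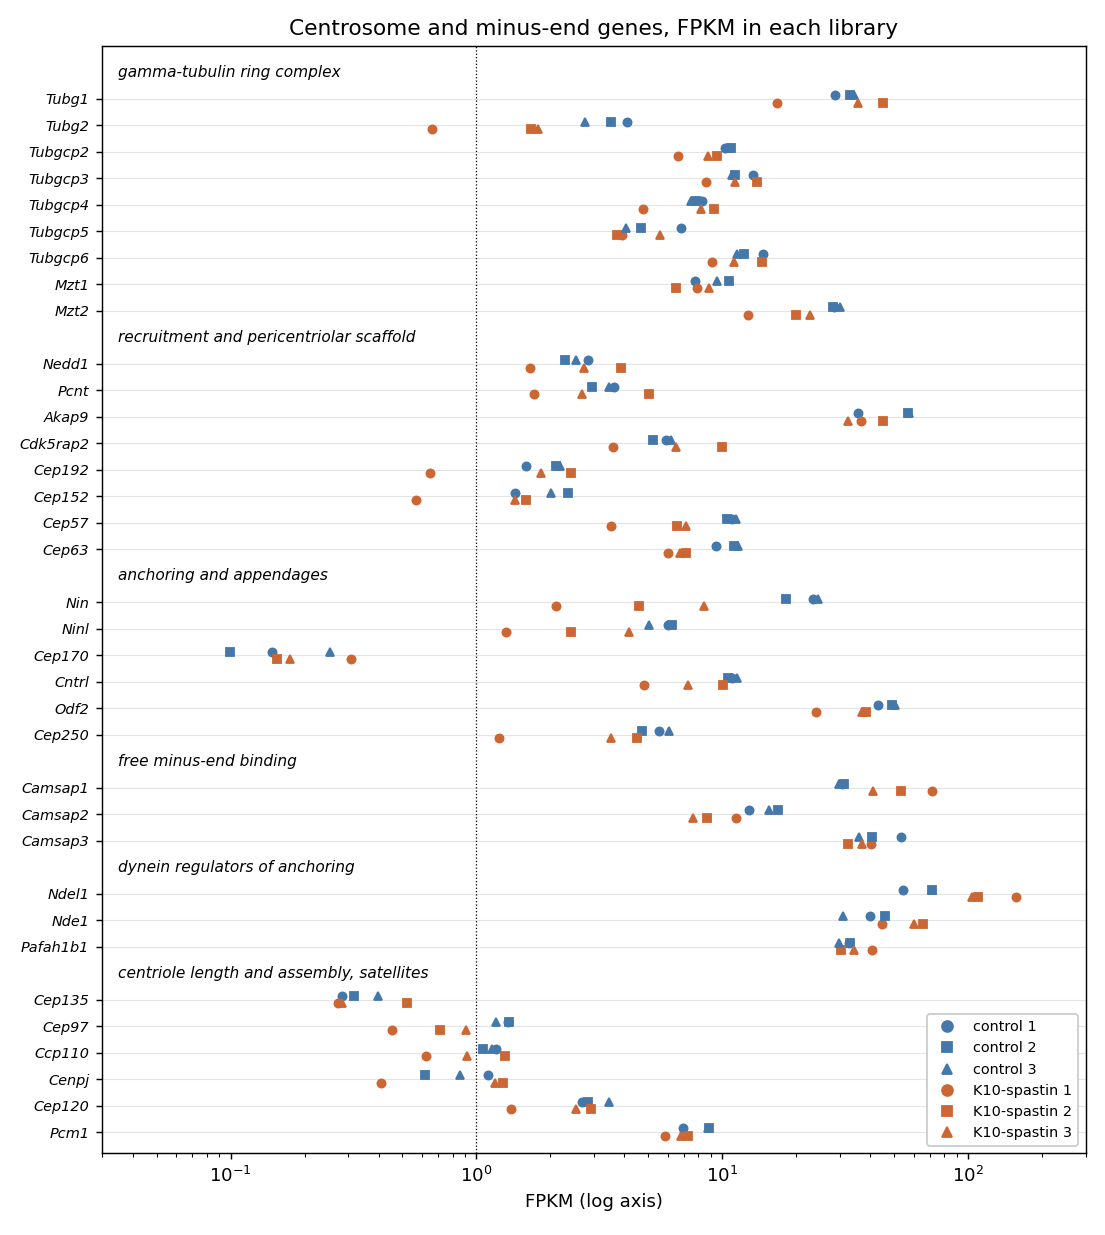
FPKM of all 35 genes in each library (log x axis; symbols mark the library, colours the group), grouped by role, with a dotted line at 1 FPKM. The levels run from 0.0992 FPKM in Cep170 to 157 FPKM in Ndel1, and K10-spastin 1 (filled circle) is the lowest point in most rows of the ring complex, scaffold and anchoring groups.

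Other genes of the same machinery were read from 5 further lists. For comparison, limma gave 1421 higher and 2065 lower of all 11071 genes tested at an unadjusted p under 0.05. In the augmin complex, which branches microtubules, 0 of 7 tested genes were called by limma and 1, Haus7, had an unadjusted p under 0.05 (log2 change 0.53 ± 0.15, adjusted p = 0.0652). Of 14 other centriole assembly genes 0 were called and 2, Cntrob and Cep78, had an unadjusted p under 0.05, with log2 changes of -0.85 ± 0.33 and -0.83 ± 0.31 (limma adjusted p = 0.124 and 0.117). Of 16 other appendage and satellite genes 1 fell: Crocc, which encodes rootletin, the fibre between centrioles. It measured 6.28, 4.43 and 5.62 FPKM across controls, against 0.438, 2.85 and 1.46 FPKM with K10-spastin (log2 change -1.42 ± 0.36, limma adjusted p = 0.0477). All 16 changes on that list were negative, with a median of -0.52, and the groups did not overlap in 10 (62.5%). Over all genes tested 5.90% fell, 6470 of 11071 changes were negative and 24.8% were lower without overlap. K10-spastin 1 was the lowest library in 14 of the 16, against 50.4% of all genes tested. Crocc was not called in 9 of 16 other settings (adjusted p up to 0.153), without control 1, 2 or 3 or K10-spastin 3 among them.

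Of 18 other nucleation regulators 0 were called by limma, and 2, Golga2 and Clasp1, had an unadjusted p under 0.05. Among all 11071 genes tested, 1421 were higher and 2065 lower at that p. Golga2, a Golgi scaffold, had a difference of 0.43 ± 0.13 on the log2 scale (adjusted p = 0.0739). Clasp1, which binds growing microtubules, had 0.44 ± 0.18 (adjusted p = 0.146). Of 10 partners at the cortex of keratinocytes 1 rose and 1 fell, against 5.14% higher and 5.90% lower of all genes tested. The groups did not overlap in 5 of the 10, against 40.4% of all genes tested. Clip1, a plus-end protein, measured 29.3, 31.7 and 31.7 FPKM across controls, against 65.9, 47.6 and 48.1 FPKM with K10-spastin (log2 change 0.77 ± 0.16, limma adjusted p = 0.0299). Dst, a linker of keratin and microtubules that is also counted among the basal markers, measured 13.6, 12.2 and 19.5 FPKM across controls, against 5.49, 7.67 and 4.94 FPKM with K10-spastin (log2 change -1.19 ± 0.24, limma adjusted p = 0.0256). Neither gene overlapped between groups, and without any 1 of the controls neither was called (adjusted p over all settings up to 0.111 for Clip1 and 0.104 for Dst). Dsp, the desmosomal protein that recruits ninein to the cortex, had a log2 change of -0.22 ± 0.14 (limma adjusted p = 0.316), and Jup, its desmosomal partner, of 0.31 ± 0.15 (adjusted p = 0.190).

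Centrosome genes are also read in dividing cells, so markers of cycling cells stand beside them. Their summed FPKM, over 15 genes, was 226, 222 and 232 in controls 1 to 3 and 160, 599 and 405 in K10-spastin 1 to 3. None of the 15 was called by limma, and 1 (Cdc20) had an unadjusted p under 0.05, against 1421 higher and 2065 lower of all 11071 genes tested. K10-spastin 1 was the lowest library in 13 of the 15, as it was in 50.4% of all genes tested. The ring complex sums (71.0, 124 and 114 FPKM) had the same library lowest and highest within K10-spastin, an order also found in 39.8% of all genes tested. The sums of anchoring genes did not reach the control range in any K10-spastin library. The part of cycling cells in these values was not tested.

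**Figure D5:**
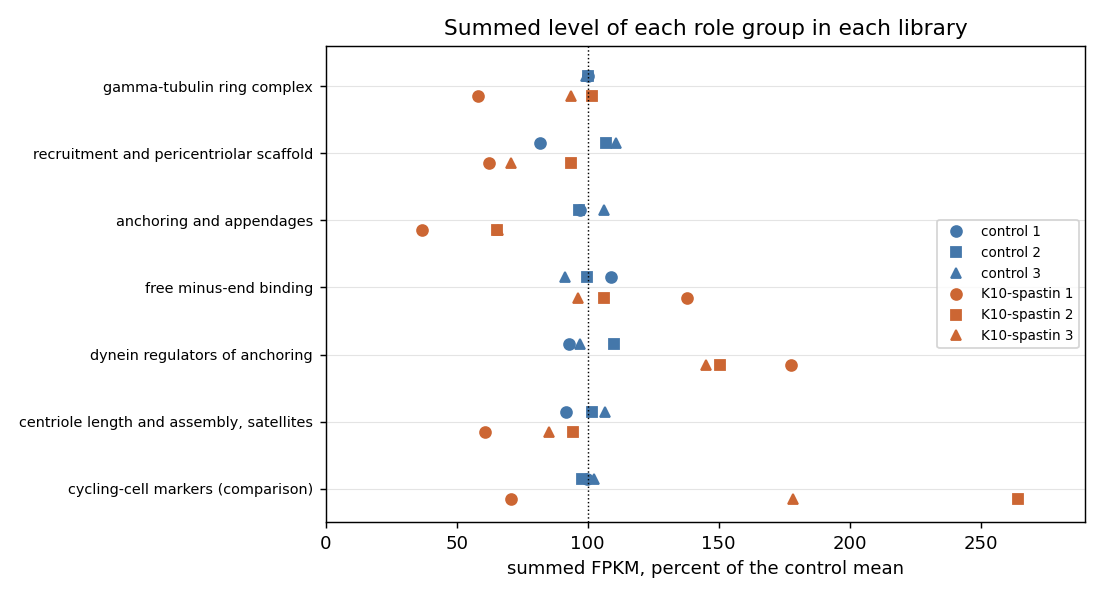
Summed FPKM of each role group, and of the 15 cycling-cell markers for comparison, in each library, as a percent of the mean of the 3 controls (x axis; symbols mark the library, colours the group). The anchoring group lies at 36.8% to 65.8% in K10-spastin and the dynein regulators at 145% to 178%, and in the ring complex K10-spastin 1 lies at 58.2% with the other libraries at 93.5% or above.

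The sorted cells carry the label keratinocytes. Summed over 9 suprabasal markers, FPKM ranged from 61100 to 72200 among controls and from 38000 to 63300 among K10-spastin libraries, and 1 of them, Calm4, rose and 1, Krt10, fell. The sum of 10 basal markers ranged from 4180 to 7280 FPKM among controls and from 2540 to 4790 FPKM among K10-spastin libraries, and 3 of them fell: Itgb1, Dst and Krt15, the last named after its value was seen. The sum of 6 fibroblast markers was 6.44 to 42.3 FPKM among controls and 0.791 to 3.03 FPKM among K10-spastin libraries. Of the 4 tested 1, Dcn, fell, and in all 4 every K10-spastin library lay below every control. Over all genes tested 5.14% rose and 5.90% fell, and 24.8% were lower without overlap. Sums were 4.20 to 15.6 and 1.91 to 23.8 FPKM for 6 melanocyte markers, and 3.06 to 5.94 and 2.61 to 5.0 FPKM for 6 Merkel cell markers. All 6 immune and all 5 endothelial markers stayed under 1 FPKM in every library, with Cd207 and Cd3e at 0. The part of basal cells and fibroblasts in the changes of the members was not tested.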

How the data were processed

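The submitters' processing notes name CASAVA and TopHat2, without versions or roles; for the counter, build, annotation and strand the sources used here give nothing. The deposited values are FPKM, computed by the authors, 1 column per library. Symbols matched 34490 of 35275 identifiers. Depth was read from the step of low values, up to 20 fragments, in 14953 genes with 1 transcript in GENCODE release M21, where 90.5% to 91.6% were whole within 0.05. In a 1 kb gene 3 fragments were worth 0.133 to 0.187 FPKM.

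Genes that averaged 1 FPKM or more were tested on log2(FPKM + 1) with limma 3.58.1 (R 4.3.3; lmFit, eBayes with trend, two-sided, Benjamini-Hochberg), without covariates; the code was tested on simulated data. Exact permutation tests compared 4 paralog ratios. Copies were sought with BLAST 2.17.0 (at least 90% identity over 200 bases); the motifs were chosen after the calls were known. The members, lists and tests were chosen with earlier results of these data known. All 35 members are reported; of each list at most 4 genes are named, 2 by p and 2 by mean FPKM. Flg, on the suprabasal list, had no match. Other pseudocounts, filters, scalings, variance models, the replicate block and left-out libraries were tried. Python 3.11.15, pandas 2.3.3, numpy 2.4.6 and matplotlib 3.10.9 did the rest.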

Additional observations from a re-analysis of the deposited data

How the results depend on the processing

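With 17 other settings, all chosen with earlier results of these data known, Nin, Ndel1 and Camsap1 kept their direction. Of the 31 tested members, 13 were called in at least 1 of these settings, and 10, none of them called in any, changed sign in at least 1. The share of all genes called in at least 1 setting was not counted. With array weights 3 members were higher and 9 lower, beside 29.9% of all genes called, and Akap9, Cntrl and Odf2 were called only there. Over all genes, 319 were higher and 348 lower with no filter, 1535 and 1771 with array weights, 274 and 218 with the replicate block, and 414 lower at a mean of at least 5 FPKM. Leaving out 1 library gave 114 to 687 higher and 31 to 707 lower genes, 0 to 2 members higher and 0 to 3 lower. The zeros came without any 1 of the controls or K10-spastin 2, where limma gave 2 to 3 members higher and 6 to 10 lower at an unadjusted p under 0.05. In the main fit that p held for 3 members higher and 8 lower, and for 1421 and 2065 of all 11071 genes. For the other settings the share of all genes at an unadjusted p was not counted, so these member counts have no background. Members called higher numbered 1 with a pseudocount of 0.1, at a mean of at least 5 FPKM, under median-of-ratios scaling, under quantile normalization, without a trend, and without control 1 and K10-spastin 1 together, and 0 with no filter and with the replicate block (3 at an unadjusted p under 0.05 in each). Members called lower numbered 3 under median-of-ratios scaling, under quantile normalization and without control 1 and K10-spastin 1 together, 2 without a trend and 9 with array weights. The log2 ratio of Nde1 to Ndel1 turned from -0.35 to 0.16 without control 1 and K10-spastin 1 together. The cause of these differences was not tested, and fits without a library had fewer samples. Same-numbered libraries deviated from their group means with correlations of -0.128, -0.378 and -0.0471. For libraries of unlike number the correlations were -0.0865 to 0.273. With 3 libraries per group these values cannot tell whether the replicate number stands for a shared batch. Nin was still called with the replicate block, with 0 members higher and 1 lower.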
